A study of Mus musculus with 15 samples.

Results

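Complement is a protein cascade of innate immunity, and RNA of 8 of its genes was followed here in the pancreatic islets of NOD mice as insulitis sets in. The 8 genes were C1ra, C4b, C2, C3, Cfb, Serping1, C3ar1 and C5ar1. They were taken by name from the deposited table of 48709 genes, and the C1q chains were left out of this set. All 8 passed the filter on low counts that kept 16554 genes for testing, and no member was dropped. The strain, NOD/ShiLtJ, is a standard model of type 1 diabetes, in which immune cells enter the islets and beta cells are lost. The samples were islets of 15 NOD females, 3 mice at each of 5 ages (4, 6, 8, 10 and 12 weeks), and no other strain, sex or treatment served as a control, so age is the only comparison and age and the course of the disease cannot be told apart. The islets were freed with collagenase, separated on a density gradient and picked by hand, which leaves attached immune, stromal and exocrine cells in the sample. Libraries were made from polyadenylated RNA. Each sample held between 25407492 and 41616275 counts.

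The cascade can be started along the classical pathway, in which C1q bound to a target activates the proteases C1r and C1s. These cleave C4 and C2, whose fragments together form an enzyme that cleaves C3. In the alternative pathway factor B takes the place of C2 and amplifies C3 cleavage. The small fragments C3a and C5a act on the receptors C3aR and C5aR1 of myeloid and other cells, and C1 inhibitor, the product of Serping1, blocks C1r and C1s. Most circulating complement is made in the liver, but macrophages, fibroblasts and epithelial cells also transcribe these genes, and several of them respond to interferons and to inflammatory cytokines.

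Coordinates are those of the deposited table, on mm10, and each of the 8 regions equals the GENCODE M21 gene of that name. Of the 8 genes, 3 lie close together in the major histocompatibility complex on chromosome 17: C4b at chr17:34728380-34743882, Cfb at chr17:34856374-34862518 and C2 at chr17:34862604-34898265, all on the minus strand. Only 85 bases separate Cfb from C2. C3 lies farther along the same chromosome, at chr17:57203970-57228136 (minus strand). C1ra (chr6:124512405-124523443, plus strand) and C3ar1 (chr6:122847138-122856161, minus strand) share chromosome 6. Serping1 is at chr2:84765387-84775444 and C5ar1 at chr7:16246743-16259540, both on the minus strand.

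The promoter of C3 is shown because C3 changed the most of the 8 genes, and short pieces of C1ra and C5ar1 because they hold the only motif matches found. RefSeq promoter sequences on GRCm38.p6, running from 250 bases before to 50 bases after each start site, were at hand for 4 of the 8 genes (C3, C1ra, C5ar1 and C3ar1). They were searched on both strands for the GAS motif TTCNNNGAA, for the core of the ISRE, GAAANNGAA, and for the kB motif of NF-kB. The GAS and ISRE motifs are those through which interferon signalling is known to act. Capitals mark the matched letters, and the C3 sequence, the 250 bases before its start site (chr17:57228137-57228386, minus strand), has none.
C3: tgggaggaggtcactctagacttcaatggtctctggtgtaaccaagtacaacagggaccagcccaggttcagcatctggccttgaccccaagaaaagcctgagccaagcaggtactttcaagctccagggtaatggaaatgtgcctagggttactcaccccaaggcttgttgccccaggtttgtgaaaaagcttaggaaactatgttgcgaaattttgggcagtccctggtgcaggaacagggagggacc
C1ra: gcaaatgcttcaTTCCCTGAAacattcctc
C5ar1: agagacttccTTCCTTTTCcaagttgacat
The C1ra piece (chr6:124512641-124512670, plus strand) lies in an exon, and its GAS match starts 32 bases after the RefSeq start site. The C5ar1 piece (chr7:16259385-16259414, minus strand) lies in an intron of the annotated gene, and its ISRE core reads on the opposite strand of the letters shown. Among all 32851 promoters of the same length, 8.3% held the GAS motif, 8.56% the ISRE core, 8.46% the kB motif and 23.1% any of the 3, so matches in 2 of 4 promoters are a description of these letters and nothing more. The C3 and C3ar1 windows held none of the 3 motifs. All letters are those of the reference build, and whether the NOD mice carry the same letters was not examined.

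All 8 genes changed over the 5 ages. In a joint edgeR quasi-likelihood test of any change with age, their adjusted p ran from 0.00101 for C2 to 0.00908 for Serping1, beside 56% of all genes tested that passed the same threshold of 0.05. At 12 as compared to 4 weeks all 8 genes were upregulated, by 2.536-fold (C3ar1) to 22.65-fold (C3). Of all genes tested, 26.3% were called higher in that comparison and 27.2% lower. The median log2 fold change of the 8 genes was 2.85, while that of all genes was -0.0481. The values of the 8 genes at 12 weeks did not overlap those at 4 weeks, which held in the higher direction for 30.3% of all genes. At 10 as compared to 4 weeks, all 8 were again called higher (22.5% of all genes), with log2 fold changes from 1.58 to 4.26. Bulk islet RNA does not separate more cells of a type from more RNA per cell, and the 2 cannot be told apart in any of these increases.

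**Figure D1:**
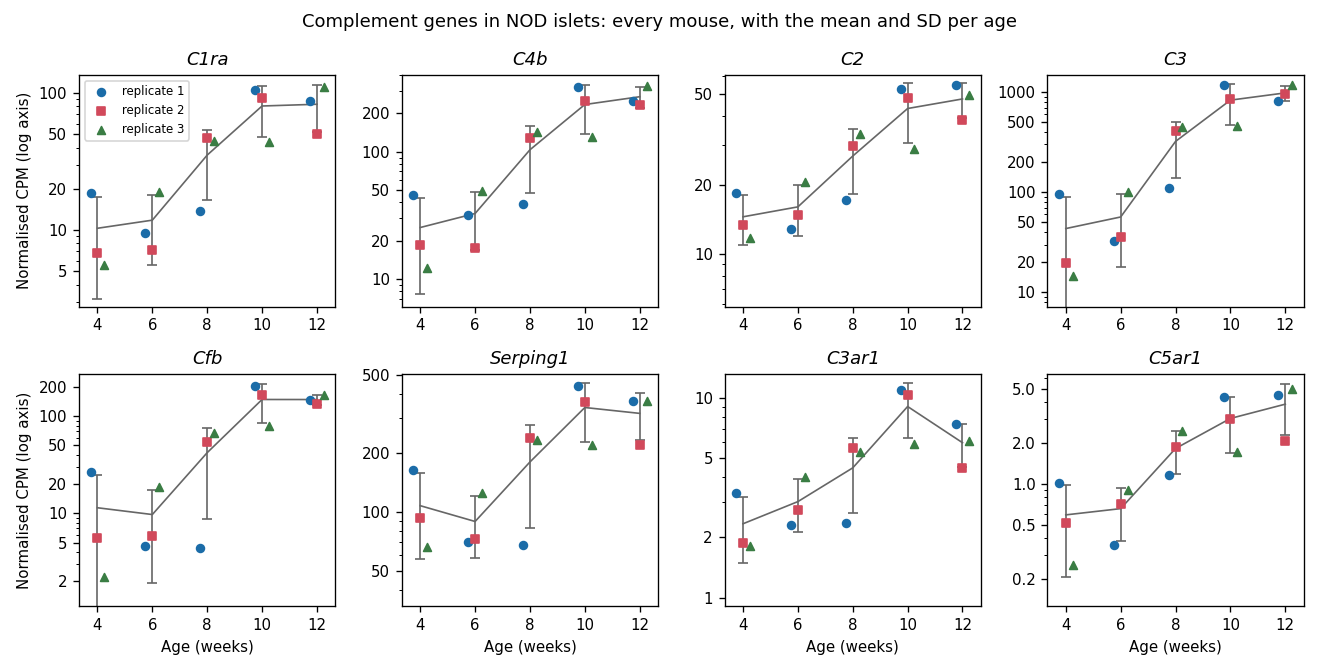
Normalised CPM (CPM, after TMM scaling of the libraries; log axis) of each of the 8 genes against age in weeks, with 1 point per mouse, the line joining the means and bars of 1 SD (n = 3). The bars of C3 and Cfb at 4 weeks run off the axis because the SD exceeds the mean there. The means of all 8 genes are higher at 10 and 12 weeks than at 4 weeks, and a single 8-week mouse stays near the 6-week values.

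C1ra encodes the protease C1r, the first enzyme of the classical pathway. Its level, given here and below as normalised CPM (counts put on one library size, comparable between mice but not between genes), was 18.6, 6.84 and 5.54 in the 3 mice of 4 weeks and 9.47, 7.13 and 18.9 in those of 6 weeks. It was 13.8, 47 and 45.1 at 8 weeks, 106, 91.7 and 43.9 at 10 weeks and 87.7, 50.1 and 111 at 12 weeks. Each of the 10- and 12-week mice was above all mice of 4 and 6 weeks, whereas at 8 weeks 1 mouse lay among the younger ones. From 4 to 12 weeks C1ra was upregulated 8.018-fold (log2 fold change 3.003, SE 0.604, edgeR adjusted p = 0.00151).

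C4b encodes complement C4, which C1s cleaves. C4b stood at 45.4, 18.5 and 12.1 CPM at 4 weeks, 31.5, 17.5 and 49 at 6 weeks and 38.8, 129 and 143 at 8 weeks. It reached 325, 250 and 130 CPM at 10 weeks and 251, 232 and 329 at 12 weeks. The 12-week mice lay close together, with the highest 1.42 times the lowest, as compared to 3.76 times among the 4-week mice. The increase from 4 to 12 weeks was 10.68-fold (log2 fold change 3.42, SE 0.605, edgeR adjusted p = 0.000753).

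C2, the partner of C4 in the enzyme that cleaves C3, had the smallest spread between mice at 4 weeks of the 8 genes. Its CPM was 18.5, 13.3 and 11.7 at 4 weeks and 55, 38.7 and 49.5 at 12 weeks. In between, C2 read 12.8, 14.7 and 20.6 CPM at 6 weeks, 17.1, 29.8 and 33.5 at 8 weeks and 53, 48.2 and 28.8 at 10 weeks. C2 was upregulated 3.293-fold at 12 as compared to 4 weeks (log2 fold change 1.72, SE 0.296), with the lowest adjusted p of the 8 genes (0.000657, edgeR). C2 overlaps Zbtb12 on the opposite strand, which had 4056 counts over the 15 mice beside 13453 for C2. Whether counting used strand is not given in the sources used here, and without strand the reads of the Zbtb12 overlap cannot be told apart. Gm20547, which overlaps C2 and Cfb on their own strand, had 107 counts, and strand does not separate its reads from theirs.

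C3 is the hub on which the pathways converge, and it had the largest fold change of the 8 genes. The 3 mice of 4 weeks had 95.9, 19.7 and 14.4 CPM and those of 6 weeks 32.8, 35.9 and 101. At 8 weeks C3 stood at 110, 409 and 446 CPM, so that the lowest 8-week mouse was only just above the highest 6-week mouse. It then reached 1177, 862 and 454 CPM at 10 weeks and 821, 959 and 1166 at 12 weeks. The increase from 4 to 12 weeks was 22.65-fold (log2 fold change 4.50, SE 0.81, edgeR adjusted p = 0.000822). Its mean rose from 43.3 ± 45.6 CPM (SD, n = 3) to 982 ± 174 CPM (SD, n = 3).

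Cfb encodes factor B of the alternative pathway, and among the 8 genes it varied the most between mice of 4 weeks, where the highest mouse had 12 times the level of the lowest. Cfb read 26.5, 5.56 and 2.21 CPM at 4 weeks, 4.64, 5.84 and 18.7 at 6 weeks and 4.45, 54.2 and 67.9 at 8 weeks. The first of the 8-week mice was below all but 1 of the 6 younger mice, while its age mates were above all of them. At 10 weeks the values were 204, 164 and 78.5 CPM, and at 12 weeks 147, 133 and 166 CPM, with a spread of 1.25 times between mice. Cfb was upregulated 12.98-fold from 4 to 12 weeks (log2 fold change 3.70, SE 0.974, edgeR adjusted p = 0.00685).

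Serping1 encodes the inhibitor of C1r and C1s and was the only regulator among the 8 genes. Its CPM was 163, 93.6 and 66.1 at 4 weeks, 70.3, 72.8 and 125 at 6 weeks and 68.1, 239 and 232 at 8 weeks. Serping1 had 438, 365 and 218 CPM at 10 weeks and 367, 219 and 367 at 12 weeks. The highest 4-week mouse was above the lowest 8-week mouse but below every 10- and 12-week mouse. The increase from 4 to 12 weeks, 2.956-fold (log2 fold change 1.56, SE 0.469, edgeR adjusted p = 0.0138), had the highest adjusted p of the 8. It was not called without the third 4-week mouse (edgeR adjusted p = 0.0603). At 10 as compared to 4 weeks, Serping1 lost its call without the second or the third 4-week mouse or the first 10-week mouse (edgeR adjusted p = 0.0506, 0.059 and 0.0535).

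The receptors were counted far more thinly than the components, with 7 to 157 counts per mouse for C5ar1 and 44 to 409 for C3ar1. C5ar1, the receptor of C5a, stood at 1.01, 0.513 and 0.253 CPM at 4 weeks, 0.357, 0.71 and 0.907 at 6 weeks and 1.17, 1.85 and 2.43 at 8 weeks. It had 4.34, 3.01 and 1.7 CPM at 10 weeks and 4.51, 2.07 and 4.94 at 12 weeks. As for C3 and unlike the other 6 genes, the 8-week values of C5ar1 were all above its 4-week and 6-week values. C5ar1 was upregulated 6.445-fold at 12 as compared to 4 weeks (log2 fold change 2.69, SE 0.542, edgeR adjusted p = 0.00153).

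C3ar1, the receptor of C3a, was the gene of the 8 whose mean peaked at 10 weeks by the widest margin. Its CPM was 3.33, 1.88 and 1.81 at 4 weeks, 2.3, 2.74 and 4.02 at 6 weeks and 2.37, 5.63 and 5.36 at 8 weeks. The 10-week mice had 10.9, 10.3 and 5.88 CPM, and the 12-week mice 7.36, 4.45 and 6.04. The difference of 12 minus 10 weeks, -0.60 on the log2 scale (SE 0.36), did not pass the test (edgeR adjusted p = 0.715), and the values of the 2 ages overlapped. From 4 to 12 weeks C3ar1 was upregulated 2.536-fold (log2 fold change 1.34, SE 0.377, edgeR adjusted p = 0.00975).

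The first 4-week mouse was the highest of its age in all 8 genes, and the fold changes were larger without it. Leaving it out, the log2 fold change from 4 to 12 weeks was 5.85 for C3, 5.28 for Cfb, 4.15 for C4b, 3.74 for C1ra and 3.33 for C5ar1, each over 1.5 times the fold with it. At 10 as compared to 4 weeks the same omission gave 5.61 for C3, 5.28 for Cfb, 3.95 for C4b, 3.70 for C1ra and 2.98 for C5ar1. All of these remained upregulated in both settings.

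Interval by interval, the 8 genes moved mostly between 6 and 10 weeks, although no single interval gave a call at an adjusted p under 0.05 in the edgeR quasi-likelihood fit. From 4 to 6 weeks 0 of 8 were called higher (0.00604% of all genes), 0 by DESeq2 (0.413%) and 0 by the edgeR exact test (0.205%), and 0 had an unadjusted p under 0.05 (3.79% of all genes in the higher direction). The log2 fold changes ran from -0.268 (Serping1) to 0.38 (C3), with Cfb, at -0.25, the other negative value. By a fold of at least 1.5 with an unadjusted p under 0.05, the threshold used in the study, 0 of 8 were higher (1.15% of all genes), and for 0 of 8 did the groups not overlap (8.34%).

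From 6 to 8 weeks all 8 log2 fold changes were positive, with a median of 1.52 as compared to -0.0109 over all genes. The values were 2.51 for C3, 2.13 for Cfb, 1.67 for C4b, 1.58 for C1ra, 1.46 for C5ar1, 1.01 for Serping1, 0.74 for C2 and 0.56 for C3ar1. Without the third 6-week mouse they were 3.23 for C3 and 3.001 for Cfb, each over 1.5 times the fold with it. At an adjusted p under 0.05, 0 of 8 were called (0% of all genes). The adjusted p ran from 0.173 to 0.436, while DESeq2 (2.64% of all genes) and the edgeR exact test (1.61%) each called 1 of 8. At the study's threshold of fold and unadjusted p, 7 of 8 were higher, all but C3ar1, beside 8.4% of all genes. That count fell to 2 without the first or the second 6-week mouse or the third 8-week mouse, and to 3 without the second 8-week mouse. The share of all genes with those mice left out was not computed. For C3 and C5ar1 the groups did not overlap, 2 of 8 as compared to 7.62% of all genes, because the first 8-week mouse was below the highest 6-week mouse for the other 6.

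From 8 to 10 weeks the 8 log2 fold changes were again positive, with a median of 1.1 (-0.00504 over all genes), from 0.69 for C2 to 1.82 for Cfb. The edgeR quasi-likelihood test called 0 of 8 at an adjusted p under 0.05 (8.4% of all genes called higher), with adjusted p from 0.0682 for C3ar1 to 0.288 for C5ar1. DESeq2 called 2 (14.4% of all genes) and the edgeR exact test 1 (9.99%). At the threshold of fold and unadjusted p, C2 and C3ar1 were higher, 2 of 8 beside 11.1% of all genes. This count is unsteady: it was 0 without the first 8-week, the first 10-week or the second 10-week mouse, 4 without the third 8-week mouse and 6 without the third 10-week mouse. The share of all genes was not computed for those settings. C3, Cfb and C3ar1 had groups that did not overlap, 3 of 8 beside 17.2%.

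From 10 to 12 weeks the log2 fold changes lay between -0.60 (C3ar1) and 0.35 (C5ar1), with a median of 0.0905. None of the 8 was called higher, 0 of 8 beside 0% of all genes, and edgeR's unadjusted p was under 0.05 for 0 of 8 (3.53% of all genes in the higher direction). DESeq2 (0.0616%) and the edgeR exact test (0.0423%) also called 0. By the threshold of fold and unadjusted p 0 of 8 were higher (1.61% of all genes), and 0 of 8 were higher without overlap (4.42%). Across the longer span from 4 to 8 weeks, 0 of 8 were called (1.86% of all genes called higher), with C3 nearest the threshold (log2 fold change 2.89, edgeR adjusted p = 0.0505). By unadjusted p under 0.05, 6 were higher (14% of all genes), while the edgeR exact test called 4 (5.33%) and DESeq2 5 (7.39%). Without the first 8-week mouse the quasi-likelihood test called 5. Without the first 4-week mouse it called 3, and the log2 fold change of C3 was 4.24 (edgeR adjusted p = 0.0223). The share of all genes called with a mouse left out was not computed, so these counts cannot be set against it.

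**Figure D2:**
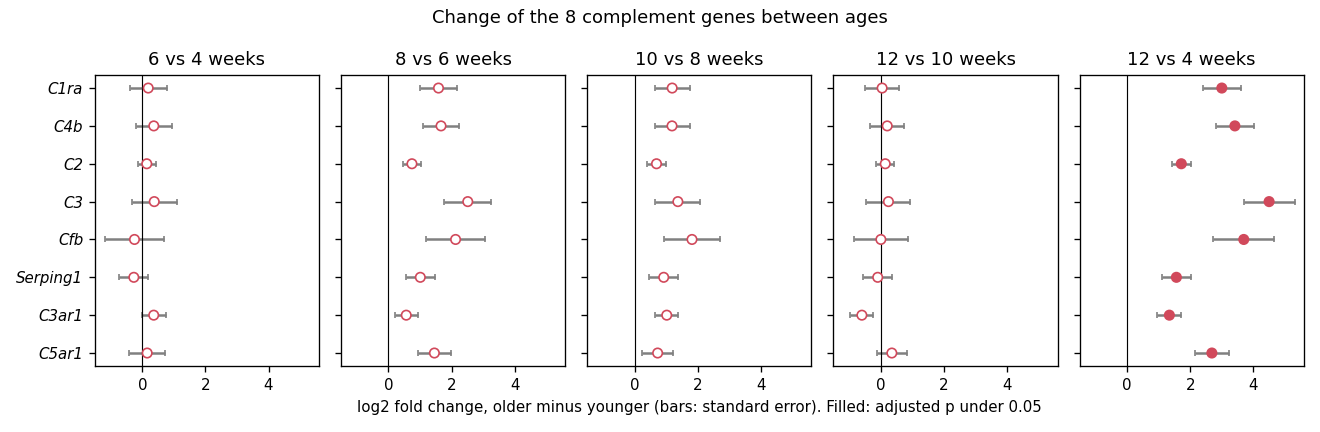
Log2 fold change (older minus younger age, x axis) of the 8 genes in the 4 successive intervals and at 12 as compared to 4 weeks, with bars of 1 standard error; filled points have an edgeR adjusted p under 0.05. All 8 points are filled in the last panel and none in the single intervals, where the points lie to the right of 0 from 6 to 8 and from 8 to 10 weeks.

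Levels of different genes were compared on the RPKM scale, the authors' reads scaled for gene length and depth, which takes gene length into account. Serping1 was the most abundant of the 8 at 4 weeks, at 39 ± 19.1 RPKM (SD, n = 3), and its mice did not overlap those of C3, the next gene, at 7.18 ± 7.71 RPKM. C4b, Cfb, C2 and C1ra followed at mean levels of 3.76, 3.45, 3.15 and 2.93 RPKM, where each neighbour overlapped the next. The receptors came last, C3ar1 at 0.458 ± 0.181 and C5ar1 at 0.195 ± 0.131 RPKM (SD, n = 3). At 12 weeks C3 was first, at 188 ± 37.9 RPKM, with Serping1 second at 135 ± 38.6 RPKM and overlapping it. Cfb followed at 51.8 ± 7.3 RPKM and C4b, which overlapped Cfb, at 46.8 ± 10.3 RPKM. C1ra (27.5 ± 10.8 RPKM) and C2 (12.1 ± 2.26 RPKM) each stood apart from their neighbours, and Cfb thus stood above C2 without overlap. Serping1 RNA was more abundant than C1ra RNA at all 5 ages, at 39 and 2.93 RPKM at 4 weeks and 135 and 27.5 RPKM at 12 weeks. C1s1, which encodes C1s, stood at 5.5 RPKM at 4 weeks and 49.1 RPKM at 12 weeks. The proteins were not measured. The receptors exchanged places. The ratio of C3ar1 to C5ar1 RPKM was 1.97, 2.19 and 4.26 in the 4-week mice and 0.975, 1.28 and 0.73 in the 12-week mice, without overlap, though at 12 weeks the levels of C5ar1 (1.48 ± 0.621 RPKM) and C3ar1 (1.36 ± 0.343 RPKM) overlapped.

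Mice of the same age differed in all 8 genes together. At 4 weeks the first mouse was the highest and the third the lowest in 8 of 8 genes. At 6 weeks the third mouse was the highest in 8 of 8, and at 8 weeks the first mouse was the lowest in 8 of 8. At 10 weeks the first mouse was the highest and the third the lowest in 8 of 8, while at 12 weeks the second mouse was the lowest in 7 of 8, all but C3. Marker lists of other cell types and of interferon-inducible genes varied between the same mice. The summed level of 8 T cell markers was 29.3, 4.02 and 1.48 CPM in the 4-week mice and 7.11, 109 and 157 CPM in the 8-week mice. That of 10 macrophage and monocyte markers was 197, 71.8 and 44.4 CPM at 4 weeks and 125, 455 and 595 CPM at 8 weeks. The 16 interferon-inducible genes summed to 785, 316 and 158 CPM at 4 weeks, to 202, 1543 and 1609 CPM at 8 weeks and to 2933, 1338 and 2673 CPM at 12 weeks. The 9 fibroblast and pericyte markers summed to 765, 647 and 558.5 CPM at 4 weeks and to 801, 1151 and 1266 CPM at 8 weeks. The first 4-week mouse was thus the highest and the first 8-week mouse the lowest of its age in these 4 lists too. The second 12-week mouse was the lowest of its age in the T cell (306, 296 and 408 CPM), macrophage (1128, 1066 and 1150 CPM) and interferon lists. In the fibroblast and pericyte list it was not (1496, 1634 and 2264 CPM). Other lists differed. B cell markers were highest in the second mouse at 4 weeks (7.97, 9.45 and 5.32 CPM) and at 12 weeks (304, 460 and 450 CPM). Acinar markers were highest of their age in the first 8-week mouse (4811 CPM). The part of the cells of these lists or of interferon signalling in the level of the 8 genes was not tested.

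**Figure D3:**
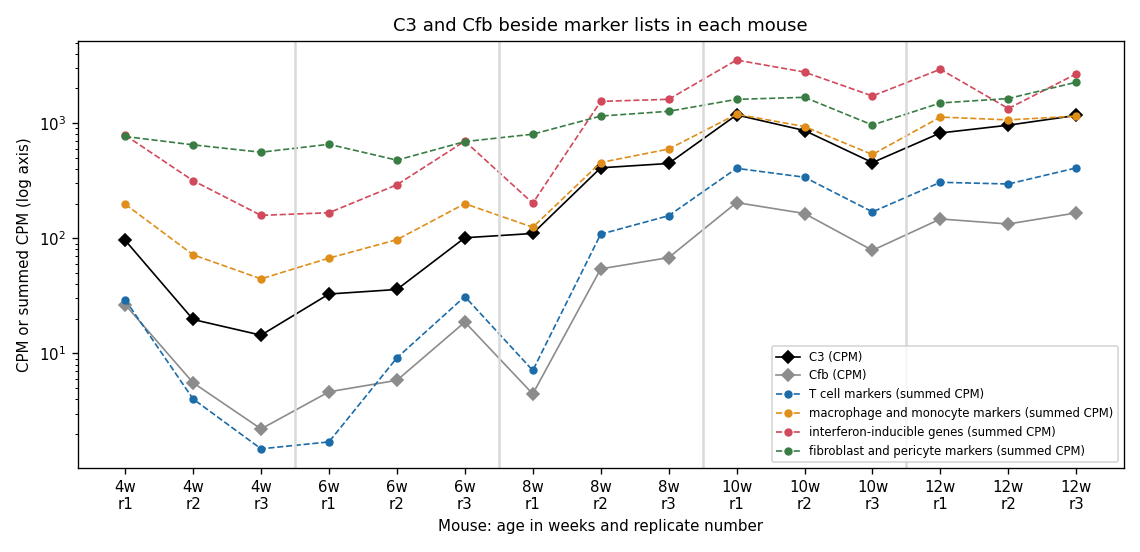
CPM of C3 and Cfb and the summed CPM of 4 marker lists (log axis) in each of the 15 mice, ordered by age in weeks and replicate number (w, weeks; r, replicate). C3, Cfb and all 4 marker lists are lowest of their age in the first 8-week mouse.

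The same lists changed with age. At 12 as compared to 4 weeks 8 of 8 T cell markers, 6 of 6 B cell markers, 10 of 10 macrophage and monocyte markers and 8 of 9 fibroblast and pericyte markers were called higher, with median log2 fold changes of 4.85, 7.85, 2.25 and 2.01, beside 26.3% of all genes. In the third 4-week mouse 3 of the 6 B cell markers and 1 of the 8 T cell markers had 0 counts. Such markers can pass the filter through the older ages alone, so the T and B cell calls and medians are a description only. Of 4 mesothelial markers 3 were called higher and 1 lower (median 4.89). Their summed level nonetheless fell, from 130 to 179 CPM at 4 weeks to 16 to 25.4 CPM at 12 weeks. Up to 3 of the 4 had 0 counts in a 4-week mouse, so the median rests on thinly counted genes. Of 8 neutrophil markers only 2 passed the filter, both of them called higher (median 4.49). The 8 summed to 0.299 to 1.91 CPM at 4 weeks and 8.98 to 9.965 CPM at 12 weeks. Markers this low can pass the filter through the older ages alone, so these 2 calls are a description only. Of the 16 interferon-inducible genes 13 were called higher (median 2.51), as were 8 of 12 acute-phase and NF-kB target genes (median 2.05). Endothelial markers moved little (3 of 6 higher, 1 lower, median 0.154), and 7 of 8 islet endocrine markers were called lower (median -0.911), from a summed 304000 to 337700 CPM at 4 weeks to 148400 to 188600 CPM at 12 weeks. Of the 8 hepatocyte markers, of interest because liver makes most complement, 5 were tested, and 2 were called higher and 1 lower (median 1.91). At 10 as compared to 4 weeks 3 of the 5 were called higher (median 2.27, beside 22.5% of all genes). All 8 together summed to 4.75 to 18.6 CPM in 14 mice and to 78.7 CPM in the first 12-week mouse. That mouse also stood apart in the 9 markers of intestinal epithelium, at 460 CPM as compared to 36.5 to 129 CPM in the others. Without that mouse all 8 genes were still called higher at 12 as compared to 4 weeks. The part of liver, gut or mesothelial RNA in the level of the 8 genes was not tested. Acinar markers, the exocrine cells next to islets, ranged from 1059 to 8855 CPM at 4 weeks and from 2595 to 10790 CPM at 12 weeks, and 0 of 6 were called.

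For each of the 8 genes, the 3 tested genes with the most similar profile over the 15 mice were listed by Pearson r of log2 CPM. The 15 points share the 5 ages and the differences between mice just described, so the r values are a description. C3 was most like Gpr18, H2-Ob and H2-DMb2 (r = 0.996, 0.996 and 0.995), the last 2 of which encode class II antigen presentation proteins. C4b was most like Ms4a4d, Irf5 and Ptger2 (0.995, 0.994 and 0.993), C2 like Serpinb9, Prkcd and Cmtm7 (0.996, 0.992 and 0.992), and Cfb like Ms4a6c, Fgr and the adhesion molecule gene Icam1 (each 0.994). For C1ra the list was Lgals1, C1s1 and Apobr (0.997, 0.996 and 0.993), and C1s1 encodes the protease C1s that C1r activates. Serping1 was most like Gbp8, Il18bp and Ly6a (0.992, 0.992 and 0.991). The closest profiles to C5ar1 were Lipe, Pmaip1 and Ms4a7 (0.984, 0.983 and 0.977), and those to C3ar1 were the interferon-induced Ifit3, with Tnfsf10 and Tapbp (0.985, 0.984 and 0.98). Among the 8 genes themselves r ran from 0.899 for the receptor pair C5ar1 and C3ar1 to 0.991 for C4b and C1ra.

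Beside the 8 genes, 45 other complement genes were listed by role, of which 43 were matched by name and 34 were tested. At 12 as compared to 4 weeks 23 of the 34 were called higher and 3 lower, with a median log2 fold change of 1.98, beside 26.3% higher and 27.2% lower of all genes. By role, 10 of 12 tested genes of the initiating steps (the 3 C1q chains among them), 1 of 2 of the alternative pathway, 1 of 4 of the terminal pathway, 7 of 12 regulators and 4 of 4 receptors were called higher. The 3 lower genes were Masp2, a protease of the lectin pathway (-0.49, SE 0.189), Cd59a, which blocks the membrane attack complex (-0.51, SE 0.095), and the regulator Susd4 (-0.41, SE 0.15), named after its value was seen. Genes with few counts at 4 weeks, C7, Cr2 and C1rb among them, can pass the filter through the older ages alone. Their calls are a description only. Leaving out single mice gave 21 to 23 of the other complement genes higher and 1 to 3 lower. When samples were scaled by their totals alone, 25 were called higher and 1 lower. Over all genes, 78.3% of the calls were then higher, as compared to 49.2% in the main fit. The share of all genes called was not computed for these settings.

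The terminal pathway did not move as a group. C7, a component of the membrane attack complex, had 3 to 7 counts in the 4-week mice and 100 to 356 in the 12-week mice. The increase was 42.7-fold (log2 fold change 5.42, SE 0.633), a description only because of the low counts at 4 weeks. C8g went from 1.67 ± 0.337 to 1.07 ± 0.144 CPM (SD, n = 3) and was not called (edgeR adjusted p = 0.0583). Hc, the gene of C5, had 0 to 6 counts in every mouse, and NOD mice are known to carry an Hc allele that leaves them without C5. C5ar1, the receptor of the C5 fragment, increased in islets whose Hc counts stayed at or near the floor of 3 counts. Cr2, the receptor for C3 fragments on B cells and follicular dendritic cells, had at most 3 counts in the 4-week mice and 887, 2114 and 1859 in the 12-week mice. Its mean level at 12 weeks, 52.6 CPM, was at least 410-fold higher than the 0.128 CPM that 3 counts make in the shallowest 4-week library.

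**Figure D4:**
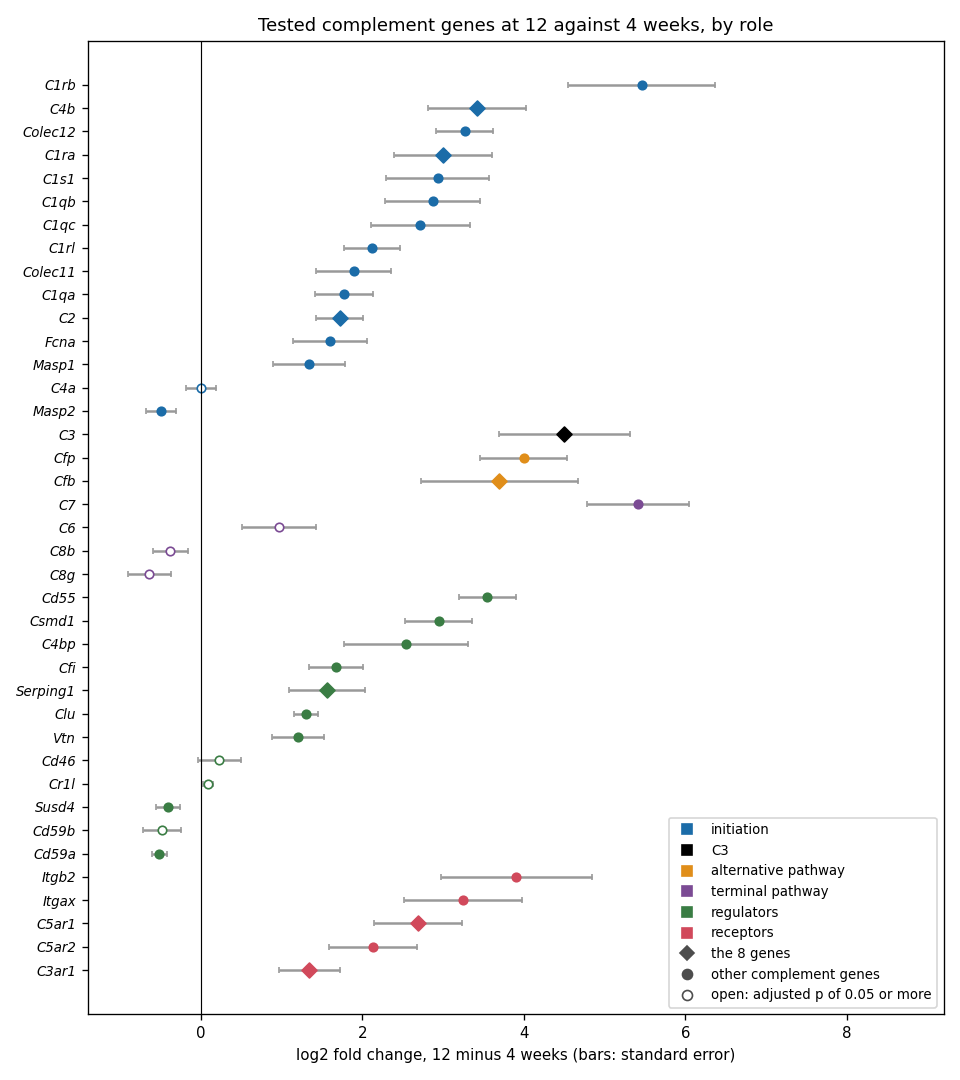
Log2 fold change at 12 as compared to 4 weeks (x axis, bars of 1 standard error) of 39 of the tested complement genes, grouped by role, with diamonds for the 8 genes and open symbols for an edgeR adjusted p of 0.05 or more. Cr2 and Cfd, with at most 3 counts in every 4-week mouse, are not drawn. C3 stands at 4.50, and Masp2, Susd4 and Cd59a are the filled points left of 0.

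Close copies of 2 of the 8 genes could share their reads. C4a (chr17:34809092-34823464, minus strand) had 85 to 146 counts in every mouse and a log2 fold change of -0.00126 at 12 as compared to 4 weeks (edgeR adjusted p = 0.997), while C4b went from 334 to 1213 counts at 4 weeks to 6934 to 10454 at 12 weeks. Of the 5230 stretches of 150 bases in the C4b transcript, 432 (8.26%) also occur in C4a, and a read from those could be placed on either gene. C4a made up 6.55% to 23.7% of the counts of the pair at 4 weeks and 1.01% to 1.85% at 12 weeks. C1rb (chr6:124570294-124581171, plus strand) shares 744 of 2832 stretches (26.3%) of the C1ra transcript. C1rb had 1 to 16 counts at 4 weeks and 169, 1046 and 146 at 12 weeks, a 44-fold increase (log2 fold change 5.46, SE 0.911). The increase became 14.7-fold without the second 12-week mouse and 73.2-fold without the first 4-week mouse. In that second 12-week mouse C1rb made up 41.1% of the counts of the pair, as compared to 0.649% to 5.9% in the other 14, and its C1ra level was the lowest of its age. The sum of the pair in it was 2545 counts. How reads were divided between the copies was not tested, and values of C1ra and C4b are uncertain to that extent. C2 and Cfb, related in sequence, share no stretch of 150 bases.

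**Figure D5:**
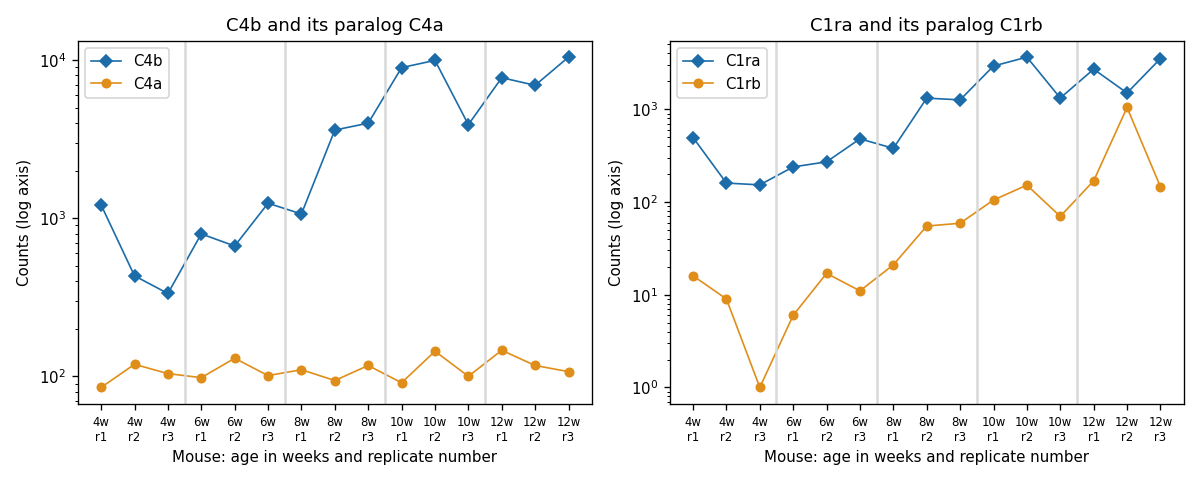
Counts (log axis) of C4b with C4a and of C1ra with C1rb in each of the 15 mice, ordered by age in weeks and replicate number (w, weeks; r, replicate). C4a stays between 85 and 146 counts while C4b climbs, and C1rb reaches 1046 counts in a single 12-week mouse.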

How the data were processed

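Islet RNA of 15 NOD females (5 ages, 3 mice each, separate animals per the study's methods) was sequenced from polyA-enriched libraries. The authors trimmed, aligned and counted reads per gene in CLC Genomics Workbench with default settings, and the deposited counts are whole reads with no normalization. The deposited RPKM values, scaled by the authors for length and depth, were used only to compare levels between genes. The build mm10 is from the submitters' processing notes. Another 30 per-sample columns (TPM and CPM) were not used. The authors' pathway analysis was not analysed here.

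Genes were filtered by filterByExpr (16554 of 48709 kept), scaled by TMM and fitted with glmQLFit in edgeR 4.0.16 (R 4.3.3), with 1 mean per age and no covariate. glmQLFTest gave each contrast and the joint test, with Benjamini-Hochberg adjustment over all tested genes and a threshold of 0.05. Standard errors are the log2 fold change divided by the square root of F. CPM uses effective library sizes, and log2 CPM a prior count of 2. Python 3.11.15, pandas 2.3.3 and matplotlib 3.10.9 made tables and figures. The fit was tested on simulated data.

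The 8 genes, the gene lists and the tests were chosen with earlier results of these data known. Named genes are the 8, their copies, Hc, the 3 largest increases and decreases among other complement genes, and the 3 most similar genes each; Susd4 was added after its value was seen, and 1 gene that falls under the rule is not reported here. Alternatives were DESeq2 size factors, library totals, no filter, only the 2 ages compared, the edgeR exact test, DESeq2 1.42.0, the replicate number as a block, and each mouse left out. Those for single other complement genes and for their counts were chosen after seeing the data. Replicate numbers come from the labels and mark no shared animal across ages, and the pairing check is given with the alternatives. A comparison of protein sequences was not made.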

Additional observations from a re-analysis of the deposited data

How the results depend on the processing

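All 8 genes were called at 12 as compared to 4 weeks under each alternative that left out no mouse of the ages compared. The joint test was not run with the edgeR exact test or for the 2 ages alone. Under the other alternatives that left out no mouse it called all 8. With single mice left out, 7 to 8 were called at 10 and at 12 as compared to 4 weeks, Serping1 being the exception. The counts that did move were those of single intervals. From 6 to 8 weeks the edgeR exact test and DESeq2 called 1 gene higher in place of 0, and leaving out single mice gave 0 to 2. From 8 to 10 weeks the exact test called 1 and DESeq2 2, with 0 to 2 when mice were left out. From 4 to 8 weeks library totals gave 1, the exact test 4 and DESeq2 5, with 0 to 5 when mice were left out. Shares of all genes called higher were not computed for library totals or with mice left out.

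Directions turned only from 4 to 6 and from 10 to 12 weeks, where no gene had passed the test. With single mice left out, the log2 fold change from 4 to 6 weeks ran from -0.34 to 1.73 for C3, -0.051 to 1.10 for C4b, -0.076 to 0.36 for C2, -1.12 to 1.33 for Cfb, -0.32 to 0.93 for C1ra, -0.59 to 0.16 for Serping1 and -0.22 to 0.79 for C5ar1. From 10 to 12 weeks it ran from -0.055 to 0.58 for C3, -0.089 to 0.51 for C4b, -0.084 to 0.31 for C2, -0.30 to 0.30 for Cfb, -0.25 to 0.30 for C1ra and -0.34 to 0.12 for Serping1. Without the filter Cfb stood at -0.0041. The cause was not tested.

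With the replicate number as a block, 8 of 8 genes were called at 10 and at 12 as compared to 4 weeks. The share of all genes called with the block was not computed. Cfb (-0.021) and C1ra (-0.011) turned negative from 10 to 12 weeks with the block. Genes higher by fold and unadjusted p numbered 5 with the block in place of 7 from 6 to 8 weeks and 1 in place of 2 from 8 to 10 weeks. Mice with the same number did not deviate together (r from -0.643 to 0.509), and 1 of 15 was nearest to its own number, so the numbers do not pair the mice. By fold and unadjusted p from 8 to 10 weeks, DESeq2 size factors, library totals and no filter each gave 4 genes, DESeq2 5, the exact test 6 and a fit of the 2 ages alone 1. For this threshold the share of all genes was computed in the main fit only, at 8.4% from 6 to 8 and 11.1% from 8 to 10 weeks. Whether the counts under the alternatives follow the share of all genes was not tested.

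Library totals in place of TMM moved the median of all genes at 12 as compared to 4 weeks from -0.0481 to 0.197 and the share of calls that were higher from 49.2% to 78.3%, so changes below about that shift depend on the scaling. With 3 mice per age, p values measure the spread between these mice, and levels at or under 3 counts per library are not detectable at this depth.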
